A study of Homo sapiens with 6 samples.

Results

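The JUN and FOS proteins are the subunits of the transcription factor AP-1, and their 7 genes (JUN, JUNB, JUND, FOS, FOSB, FOSL1 and FOSL2) were followed here in HCT116 cells with and without knockdown of the long noncoding RNA GMDS-AS1. The genes were chosen by symbol, as all JUN and FOS subunits, with earlier results of these data known. All 7 were found among the 60662 genes with a value, and all 7 were among the 16901 genes tested. HCT116 is an established human colorectal carcinoma cell line. The cells carried either a nontarget control shRNA (shCtrl) or GMDS-AS1 shRNA2 (GMDS-AS1 KD), each delivered by lentivirus from a pLKO.1 plasmid and kept as a stable line, so both groups share the transduction and differ in the hairpin. RNA was sequenced from 3 libraries per group, labelled as biological replicates, from cells grown in McCoy's 5a medium with serum. A single hairpin was sequenced, so a change that follows GMDS-AS1 cannot be told apart from one that follows this hairpin or this pair of stable lines, and p-values measure the spread between libraries of 1 line per group.

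AP-1 binds DNA as a dimer through basic leucine zippers. JUN proteins pair with each other, with FOS proteins and with some ATF and MAF proteins, while FOS proteins do not form stable pairs of their own and need a JUN partner. FOS, FOSB and JUN are classical immediate-early genes, with short-lived transcripts that mitogens and stress induce within minutes, whereas JUND is transcribed more constantly. FOSL1 encodes FRA-1, a subunit known for its association with invasion and mesenchymal traits in carcinoma cells, and FOSL2 encodes FRA-2. JUN favours proliferation in many cell types, and JUNB and JUND often oppose it.

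The AP-1 transcript pool of HCT116 cells differed in size and make-up between the groups. JUN, FOS, FOSL1, FOSL2 and JUNB fell, JUND rose, and FOSB did not pass the test. FOSL1 was 3.996 times lower in mean TPM, JUN 3.90 times lower, and JUND 3.77 times higher. TPM is an expression unit scaled for transcript length and for the total of a library, so it allows levels to be compared between genes.

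The promoters of 3 members hold a match to a sequence that AP-1 or the related ATF dimers bind, and they are shown because AP-1 is known to act on promoters of its own genes. Each runs from 250 bases before to 50 bases after the RefSeq start of the gene on GRCh38.p14, and capitals mark the match. The JUN promoter lies at chr1:58783998-58784297 (minus strand), the JUND promoter at chr19:18281573-18281872 (minus strand) and the FOSL2 promoter at chr2:28392608-28392907 (plus strand).
JUN: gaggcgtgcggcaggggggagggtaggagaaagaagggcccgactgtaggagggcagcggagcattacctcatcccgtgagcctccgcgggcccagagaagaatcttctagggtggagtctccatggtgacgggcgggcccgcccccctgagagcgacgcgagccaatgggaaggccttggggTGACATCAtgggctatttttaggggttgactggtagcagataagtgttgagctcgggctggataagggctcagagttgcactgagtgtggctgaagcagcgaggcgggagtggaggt
JUND: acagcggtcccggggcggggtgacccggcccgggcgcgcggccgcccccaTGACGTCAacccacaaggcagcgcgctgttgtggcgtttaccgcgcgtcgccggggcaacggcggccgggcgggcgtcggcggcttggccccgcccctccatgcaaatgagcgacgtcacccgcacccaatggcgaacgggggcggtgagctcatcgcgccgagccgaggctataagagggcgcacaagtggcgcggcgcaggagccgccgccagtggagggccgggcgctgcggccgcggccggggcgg
FOSL2: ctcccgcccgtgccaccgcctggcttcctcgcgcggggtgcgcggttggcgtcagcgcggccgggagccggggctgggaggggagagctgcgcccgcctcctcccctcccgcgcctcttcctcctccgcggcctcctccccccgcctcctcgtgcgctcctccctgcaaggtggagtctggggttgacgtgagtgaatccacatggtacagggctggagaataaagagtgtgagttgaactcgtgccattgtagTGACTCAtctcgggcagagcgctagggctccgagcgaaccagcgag

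The JUN promoter holds TGACATCA, the variant element through which JUN is known to act on its own gene, 67 bases before the start. The JUND promoter holds the cAMP-response type element TGACGTCA, 200 bases before the start. In the FOSL2 window the AP-1 consensus TGACTCA begins 4 bases after the start. These starts are those of RefSeq, and by the GENCODE positions given below the JUN and FOSL2 windows lie inside the gene. Both strands were searched for these 3 motifs, for the STAT site TTCNNNGAA and for the CArG box of serum response factor, and none of the 5 motifs overlapped another match in these windows. The promoters of JUNB, FOS and FOSB matched none of them, which says only that these letters are not in the 300 bases searched. For FOSL1 no sequence is given. Of 35116 promoters of this length, 4.95% hold TGACTCA, 1.85% TGACGTCA, 2.61% TGACATCA, 7.66% TTCNNNGAA and 1.29% the CArG box. The matches are a description only.

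The deposited values set the limits of these measurements. Each library held TPM for the same genes and summed to between 991058 and 992992. TPM keeps no read total, so depth is unknown and no counting error could be given. The shCtrl libraries had 26061 to 26402 genes above 0 and the GMDS-AS1 KD libraries 24381 to 24814. Trimmed mean scaling moved the KD libraries against the shCtrl libraries, with scaling factors that differed by -0.25 on the log2 scale. A log2 fold change of a well expressed gene here sits about that far above the log2 ratio of its mean TPM, and for genes at a few TPM the pseudocount of 1 also shrinks it. Fold changes are given on the log2(TPM + 1) scale from limma after this scaling, with p-values adjusted by Benjamini-Hochberg over all genes tested, and a gene was called at an adjusted p under 0.05.

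GMDS-AS1 itself, listed in the files under the symbol GMDS-DT (ENSG00000250903), was at 1.66, 2.21 and 1.34 TPM in shCtrl and at 0.88, 0.91 and 0.79 TPM in KD. The groups did not overlap, with a log2 fold change of -0.41 (SE 0.137, adjusted p = 0.0412 in limma). Blocking on the replicate number gave an adjusted p of 0.0523, and the call held in 5 of 13 alternative settings. Of 5 epithelial markers, EPCAM and CDH1 did not pass the test (adjusted p = 0.0729 and 0.381 in limma). KRT8, KRT18 and KRT19 fell (log2 fold changes of -1.45, -1.83 and -0.26). The 5 markers summed to 9163 to 9612 TPM in shCtrl and to 3434 to 3542 TPM in KD. Of 4 markers of other cell types, the leukocyte gene PTPRC was listed at 0 in all 6 libraries, COL1A2 and PECAM1 reached at most 0.06 and 0.4 TPM, and COL1A1 made up nearly all of a sum of 13.22 to 14.5 TPM in shCtrl and 10.05 to 11.26 TPM in KD. The part of the keratin difference in the results was not tested.

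**Figure D1:**
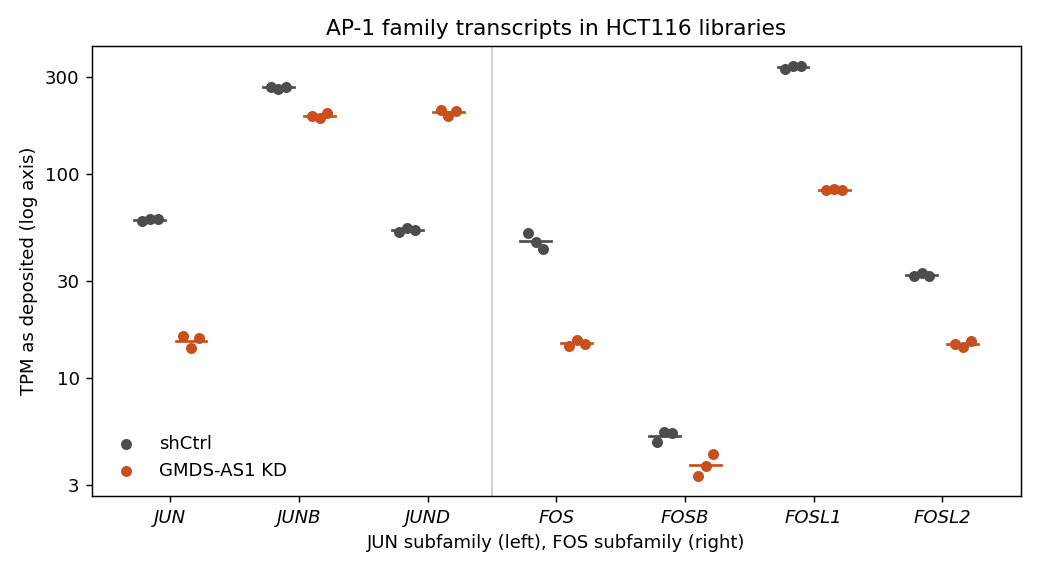
Deposited TPM of the 7 AP-1 genes (log axis) in the 3 shCtrl libraries (grey) and the 3 GMDS-AS1 KD libraries (orange), with each library as a point and the group mean as a line. JUND is the only member whose KD points, at 192.05 to 207.17 TPM, lie above its shCtrl points, at 52.02 to 54.62 TPM.

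Among the JUN subfamily, whose members can take either place in an AP-1 dimer, the 3 genes moved apart. JUN (ENSG00000177606), the founding member and a target of the JNK kinases, was at 58.81, 60.16 and 60.3 TPM in shCtrl and at 16.1, 14.15 and 15.71 TPM in KD. All KD libraries lay far below all shCtrl libraries, and the mean went from 59.76 ± 0.823 to 15.32 ± 1.03 TPM (SD, n = 3). JUN fell by 1.66 on the log2 scale (SE 0.0514, adjusted p = 1.35e-06 in limma). Only 0.67% of the genes tested had a lower log2 fold change.

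JUND (ENSG00000130522), the JUN gene least dependent on stimulation, was at 52.02, 54.62 and 53.57 TPM in shCtrl and at 207.17, 192.05 and 204.31 TPM in KD. Its groups stood well apart, in the direction opposite to JUN, and the mean went from 53.4 ± 1.31 to 201.2 ± 8.03 TPM (SD, n = 3). JUND rose by 2.14 on the log2 scale (SE 0.0355, adjusted p = 1.48e-07 in limma), the 23rd largest rise among the 16901 genes tested.

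JUNB (ENSG00000171223), a JUN protein that often restrains growth, was the most abundant JUN transcript in the shCtrl libraries, at 269.13, 262.76 and 267.55 TPM. In the KD libraries it was at 193.64, 189.76 and 199.19 TPM, below every shCtrl library but by far less than JUN. The mean went from 266.5 ± 3.32 to 194.2 ± 4.74 TPM (SD, n = 3), and JUNB fell by 0.21 on the log2 scale (SE 0.0258, adjusted p = 0.000576 in limma). Of all genes tested, 34.0% had a lower log2 fold change, so the JUNB change was small beside those of JUN and JUND. JUNB also shares 259 of its 1820 exonic bases (14.2%) with HOOK2, a gene on the opposite strand that codes for a microtubule-binding adaptor, and whether the counting used strand is not given in the sources used here. HOOK2 was at 50.46, 54.14 and 55.24 TPM in shCtrl and at 36.17, 40.43 and 38.82 TPM in KD, with a log2 fold change of -0.22 (adjusted p = 0.0221 in limma), close to that of JUNB.

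Among the FOS subfamily no member rose. FOS (ENSG00000170345), the prototype immediate-early gene, was at 51.47, 46.33 and 43.0 TPM in shCtrl and at 14.33, 15.44 and 14.7 TPM in KD. The shCtrl libraries were spread more widely for FOS than for JUN, yet the groups did not come near each other. The mean went from 46.93 ± 4.27 to 14.82 ± 0.565 TPM (SD, n = 3), and FOS fell by 1.36 on the log2 scale (SE 0.0696, adjusted p = 8.87e-06 in limma).

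FOSL1 (ENSG00000175592) was the most abundant of the 7 transcripts in the shCtrl libraries, at 327.53, 337.76 and 337.99 TPM. In the KD libraries it was at 83.46, 84.27 and 83.31 TPM, with hardly any spread. The mean went from 334.4 ± 5.97 to 83.68 ± 0.516 TPM (SD, n = 3), and FOSL1 fell by 1.74 on the log2 scale (SE 0.0296, adjusted p = 1.68e-07 in limma). This was the largest fall among the 7 members, and 0.55% of the genes tested had a lower log2 fold change.

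FOSL2 (ENSG00000075426), the closest relative of FOSL1, was at 31.59, 32.66 and 31.75 TPM in shCtrl and at 14.67, 14.22 and 15.18 TPM in KD. Its groups did not overlap, and its fall was less than that of FOSL1. FOSL2 fell by 0.83 on the log2 scale (SE 0.0425, adjusted p = 8.65e-06 in limma), and its log2 fold change was -1.07 on the TPM as deposited, which is past 2-fold. The antisense gene FLJ31356 overlaps the start of the FOSL2 locus and ENSG00000270640 lies in an intron. They share no exonic base with FOSL2 and were not tested.

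FOSB (ENSG00000125740), an immediate-early gene like FOS, was the lowest member in both groups. It was at 4.85, 5.43 and 5.39 TPM in shCtrl and at 3.33, 3.71 and 4.28 TPM in KD. The deposited values did not overlap, but after trimmed mean scaling they did, at 4.42 to 5.01 against 3.62 to 4.62. The log2 fold change was -0.18 (SE 0.102, adjusted p = 0.176 in limma), and -0.39 on the TPM as deposited, where the adjusted p was 0.0161. ERCC1, a DNA repair gene on the opposite strand of the FOSB locus, shares no exonic base with it and fell by 0.33 on the log2 scale.

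Counted over the family, 5 of 7 members fell and 1 rose, where 25.8% of all genes tested fell and 28.7% rose. At a change of at least 2-fold, 3 of 7 members (JUN, FOS and FOSL1) fell and 1 (JUND) rose, beside 4.21% and 2.96% of all genes tested. The family was chosen with earlier results of these data known, so these counts are not independent evidence. The calls and directions of the 6 members past the threshold held in all 13 alternative settings, which included the TPM as deposited, other filters, the replicate block and leaving out each library. The scaling decides how large the changes are, because the TPM as deposited gave a lower log2 fold change for every member.

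**Figure D2:**
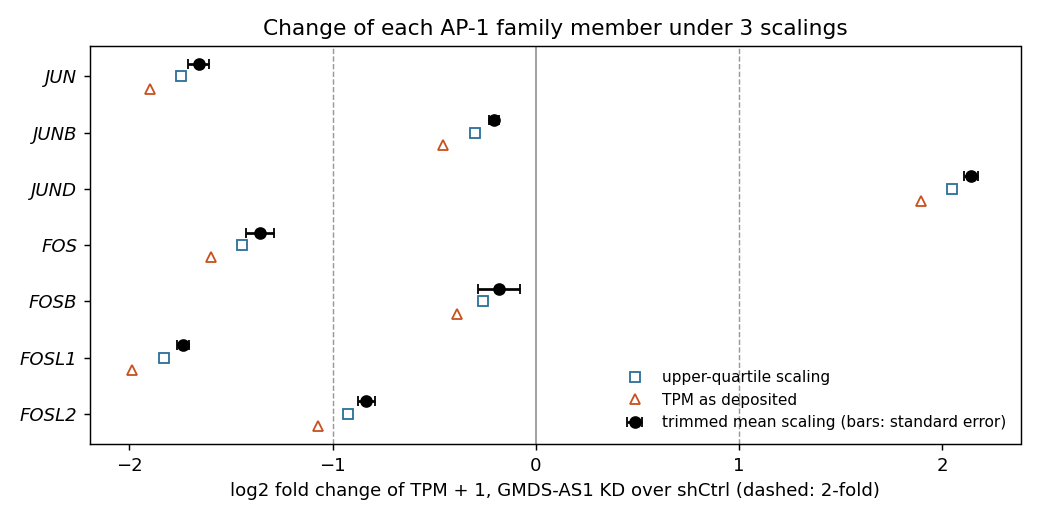
Log2 fold change of TPM + 1, GMDS-AS1 KD over shCtrl, for each AP-1 gene after trimmed mean scaling (black circles, bars are the standard error), after upper-quartile scaling (blue squares) and on TPM as deposited (orange triangles). JUND lies at 1.89 to 2.14 and FOSL1 at -1.99 to -1.74 on these scales, and FOSL2 crosses the dashed 2-fold line only on the TPM as deposited.

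The order of the 7 transcripts by level was not the same in the 2 groups. In the shCtrl libraries the order of mean TPM was FOSL1, JUNB, JUN, JUND, FOS, FOSL2 and FOSB, and no neighbours in that order overlapped. In the KD libraries JUND at 201.2 TPM and JUNB at 194.2 TPM led and overlapped each other, followed by FOSL1. JUN, FOS and FOSL2, at 15.32, 14.82 and 14.69 TPM, then overlapped, so the 3 transcripts could not be ordered, and FOSB remained lowest.

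Summed over its 3 genes, the JUN subfamily held 380.0, 377.5 and 381.4 TPM in shCtrl, against 416.9, 396.0 and 419.2 TPM in KD. The KD sums lay above the shCtrl sums, also after trimmed mean scaling (348.1 and 447.8 on average), but by far less than JUND alone, since the make-up of the sum turned over. JUND was 14.1% of the JUN subfamily sum in shCtrl and 49.0% in KD, JUNB was 70.2% and 47.3%, and JUN was 15.7% and 3.73%. The ratio of JUND to JUN went from 0.894 ± 0.0125 to 13.2 ± 0.374 (SD, n = 3).

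The FOS subfamily sum was 415.4, 422.2 and 418.1 TPM in shCtrl, against 115.8, 117.6 and 117.5 TPM in KD. FOSL1 made up 79.9% of it in shCtrl and 71.5% in KD, so FOSL1 remained the main FOS transcript while the whole subfamily shrank. FOSL2 was 7.64% and 12.6% of that sum, FOS 11.2% and 12.7%, and FOSB 1.25% and 3.22%.

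Over all 7 genes, JUN subfamily transcripts were 47.6% ± 0.307 of the pool in shCtrl and 77.8% ± 0.635 in KD (SD, n = 3). The ratio of JUN to FOS subfamily transcripts went from 0.907 ± 0.0111 to 3.51 ± 0.127. FOSL1 and JUNB together were 75.3% of the shCtrl pool, and JUND and JUNB together were 74.9% of the KD pool. These shares are of transcripts, and no protein or dimer was measured in these files.

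**Figure D3:**
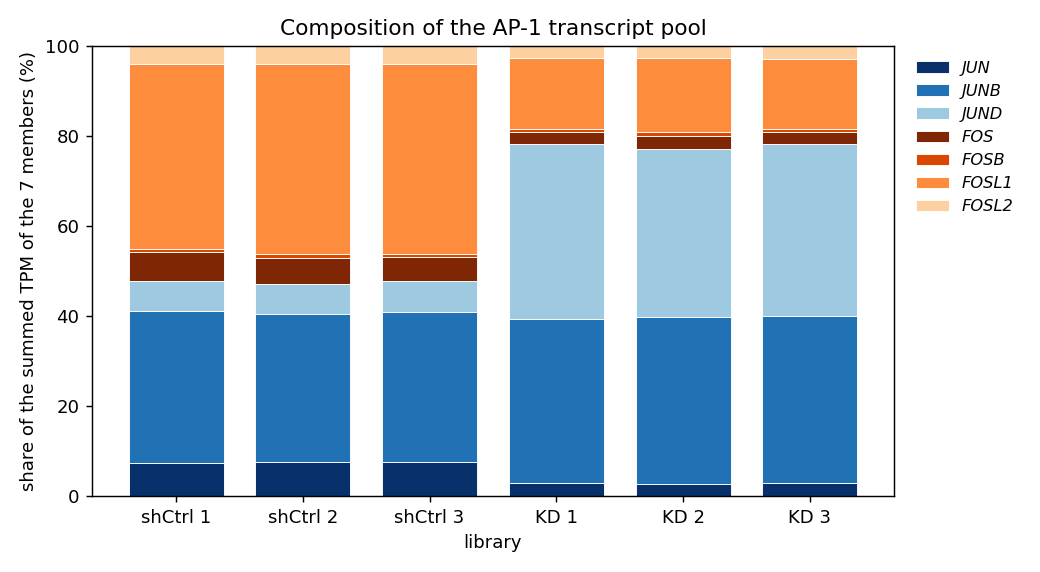
Share of the summed TPM of the 7 AP-1 genes in each library (percent), with the JUN subfamily in blues and the FOS subfamily in oranges. In the 3 shCtrl libraries FOSL1 takes 41.18% to 42.27% and JUND 6.54% to 6.83%, and in the 3 KD libraries FOSL1 takes 15.52% to 16.41% and JUND 37.39% to 38.89%.

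Ratios within each subfamily do not depend on how the libraries are scaled against each other, apart from the pseudocount. The log2 ratio was compared between the groups for the 9 pairs of genes within a subfamily. In all 9 the groups did not overlap, and each gave p = 0.1 in an exact two-sided permutation test, the smallest that 3 libraries against 3 allow, with 0.1 after adjustment over the 9 pairs. This test therefore cannot reach 0.05 at this number of libraries, and the sizes are given as a description. The pairs share genes and are not independent. How often pairs of any other genes separate the groups is not given, so the count of pairs without overlap is no result about the family. The largest difference was that of JUN to JUND, at -3.79 on the log2 scale, followed by JUNB to JUND at -2.35. Within the FOS subfamily the smallest was that of FOS to FOSL1, at 0.39, and FOSL1 to FOSL2 differed by -0.91.

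The members differ in structure as well. JUN, at chr1:58780788-58784327, JUNB, at chr19:12791496-12793315, and JUND, at chr19:18279760-18281622 (GRCh38, GENCODE), each have 1 exon in their principal transcript, as intronless genes. FOS, at chr14:75278774-75282230, FOSB, at chr19:45467995-45475179, FOSL1, at chr11:65892049-65900573, and FOSL2, at chr2:28392448-28417312, each have 4 exons. JUN and JUND have 1 exon each and moved in opposite directions. Among 270 tested genes with 1 exon, 31.85% rose and 22.96% fell, beside 33.53% and 29.15% of 12918 tested protein-coding genes. At least 2-fold, 5.56% of the 1-exon genes rose and 2.96% fell, beside 3.20% and 4.70%. The part of exon number in the changes was not tested. JUNB, JUND and FOSB lie on the same chromosome, and 1 fell, 1 rose and 1 did not pass the test.

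The JUND transcript is 69.7% G and C, and only 0.495% of 12918 tested protein-coding genes have a higher content. Base composition moved with the difference between the groups over these genes, a comparison added after the values were seen. Over all 12918 genes, 33.53% rose, 29.15% fell and the median log2 fold change was 0.0125, while 3.20% rose at least 2-fold. Among the 169 genes within 2 percentage points of JUND, 48.5% rose, 18.3% fell and the median log2 fold change was 0.23, while 9.47% rose at least 2-fold. Among the 990 genes like JUNB, whose transcript is 64.9% G and C, 45.6% rose, 21.3% fell and the median was 0.17. The other members had a content of 52.6% to 60.0%, and the medians of genes like them were 0.03 to 0.06. The part of base composition in the JUND and JUNB values was not tested.

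AU-rich elements in a 3′ UTR are short sequences that mark labile transcripts such as FOS for decay or for binding by proteins such as HuR. The pentamer ATTTA occurs 5 times in the 806 bases of the FOS 3′ UTR, and 7.49% of the 2095 UTRs of like length hold as many. The other members hold from 1 (JUND and FOSL1) to 9 (FOSL2). For these, 25.59% (JUNB) to 69.05% (FOSB) of UTRs of like length hold as many. The longer element TTATTTATT was found in FOS and FOSL2 and in no other member. The windows around it are shown, read on the transcript strand from GENCODE, with the element in capitals.
FOS: tgtttttaatTTATTTATTaagatggatt
FOSL2: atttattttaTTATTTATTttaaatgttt

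Of all 18633 3′ UTRs searched, 7.71% hold the element, with 4.68% of those as long as the FOS UTR and 22.4% of those as long as the FOSL2 UTR, which has 4864 bases. FOS and FOSL2 both fell, with log2 fold changes of -1.36 and -0.83. The 5 members without it had log2 fold changes of -1.74 (FOSL1), -1.66 (JUN), -0.21 (JUNB), -0.18 (FOSB, not past the test) and 2.14 (JUND). ELAVL1, which encodes HuR, the RNA-binding protein that the study examined as a partner of GMDS-AS1, was at 49.08, 47.29 and 46.26 TPM in shCtrl and at 56.16, 57.31 and 60.79 TPM in KD. Its groups did not overlap, and its transcript rose by 0.53 on the log2 scale (SE 0.0398, adjusted p = 4.87e-05 in limma) and by 0.28 on the TPM as deposited. By RT-qPCR the paper found no meaningful change of HuR mRNA after the knockdown, unlike the rise here. By immunoblot it found HuR protein to be lower, and no protein was measured in these files.

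Other proteins regulate the levels of JUN and FOS, by transcript decay or by ubiquitination, and 11 such genes were listed. Of these 4 fell, 4 rose and 3 did not pass the test, with a median of 0.04, beside 25.8% lower and 28.7% higher over all genes tested. On the TPM as deposited 5 were lower and 2 higher. ZFP36L1, an AU-rich element binding protein that promotes decay, was at 189.81, 184.11 and 190.48 TPM in shCtrl and at 78.08, 74.67 and 73.54 TPM in KD, and fell by 1.06 on the log2 scale (SE 0.0365, adjusted p = 1.89e-06 in limma). Its relatives did not move alike, since ZFP36 fell by 0.53 and ZFP36L2 rose by 0.85. Small counts such as these are named gene by gene here and below, a choice made after the values were seen. FBXW7, a ubiquitin ligase subunit that recognises phosphorylated JUN, fell by 0.79. The other genes that rose were HNRNPD and KHSRP, both decay factors, by 0.32 and 0.29, and neither was called on the TPM as deposited. DET1, a subunit of a JUN ubiquitin ligase, was at 2.79, 9.47 and 1.96 TPM in shCtrl and at 1.28, 0.37 and 0.53 TPM in KD. The shCtrl replicate 2 value stood apart. The DET1 log2 fold change was -1.39 (adjusted p = 0.0398 in limma) and -0.86 without that library, and its call was lost in 5 of 13 alternative settings, among them the replicate block (adjusted p = 0.0589).

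Of 14 other genes whose proteins can pair with JUN or FOS proteins, 11 were tested and the other 3, BATF and MAF among them, were too low. Among the 11, 4 fell, 1 rose and 6 did not pass the test, with a median of -0.15, beside 25.8% lower and 28.7% higher over all genes tested. JDP2, a repressive partner of JUN, was at 20.33, 20.89 and 19.49 TPM in shCtrl and at 3.48, 3.25 and 2.87 TPM in KD. JDP2 fell by 2.12 on the log2 scale (SE 0.0785, adjusted p = 2.34e-06 in limma), larger than that of any of the 7 members. ATF3, a stress-induced partner, was at 122.5, 121.88 and 127.05 TPM in shCtrl and at 46.5, 47.33 and 48.09 TPM in KD, and fell by 1.12 (SE 0.0359, adjusted p = 1.51e-06 in limma). MAFF and ATF7 fell (log2 fold changes of -0.84 and -0.37), and MAFK rose by 0.72. The ATF7 call was lost without GMDS-AS1 KD replicate 2 (highest adjusted p of 0.0511 on leaving out a library) and without the filter on low values.

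Kinases that phosphorylate JUN and FOS proteins, or that induce them, were called in both directions. Of 14 genes 5 fell, 6 rose and 3 did not pass the test, with a median of -0.10, beside 25.8% lower and 28.7% higher over all genes tested. On the TPM as deposited 7 were lower and 2 higher. MAPK8, which encodes the JUN kinase JNK1, was at 62.45, 67.63 and 64.44 TPM in shCtrl and at 17.97, 18.08 and 17.82 TPM in KD. The groups stood apart, and MAPK8 fell by 1.55 on the log2 scale (SE 0.0433, adjusted p = 1.02e-06 in limma). For MAPK9, which encodes JNK2, the log2 fold change was 0.02 (adjusted p = 0.857 in limma). MAP2K7, the kinase that activates JNK, was at 11.98, 21.52 and 12.9 TPM in shCtrl and at 30.76, 30.19 and 31.8 TPM in KD, and rose by 1.24 (SE 0.193, adjusted p = 0.00161 in limma). MAP2K4, the other JNK activator, rose by 0.86. The p38 gene MAPK14, RPS6KA2 and RPS6KA3 also fell (log2 fold changes of -0.83, -0.65 and -0.38). The remaining rises, in MAPK3, RPS6KA1, MAP2K1 and MAP2K2, were of 0.16 to 0.43 and were not called on the TPM as deposited, where MAP2K1 and MAP2K2 had the opposite sign (-0.08 and -0.05).

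Of 16 transcription factors known to act on JUN and FOS promoters, 4 fell, 5 rose and 7 did not pass the test, with a median of 0.07. These shares lie near the 25.8% lower and 28.7% higher of all genes tested, and on the TPM as deposited 7 were lower and 2 higher. SRF, the serum response factor that drives FOS, was at 15.38, 15.11 and 16.39 TPM in shCtrl and at 21.9, 20.72 and 21.25 TPM in KD, and rose by 0.66 (SE 0.0548, adjusted p = 7.74e-05 in limma). STAT3, the factor at the centre of the study, was at 37.53, 41.32 and 36.43 TPM in shCtrl and at 19.34, 17.5 and 18.14 TPM in KD, and fell by 0.79 (SE 0.0583, adjusted p = 4.52e-05 in limma). The SRF and STAT3 transcripts thus changed in opposite directions, and the part of either in the FOS change was not tested. The ETS factor ELK3 and MEF2A fell (log2 fold changes of -0.41 and -0.32), and MEF2C rose by 0.97. SP1, TEAD4 and TEAD1 rose by 0.31, 0.26 and 0.23 after scaling, were not called on the TPM as deposited, and TEAD1 had the opposite sign there (-0.01).

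The listed AP-1 target genes were mostly lower. That list was made with earlier results of these data known, so its counts are not independent evidence. Of 30 such genes 22 were tested, and MMP1, MMP3, MMP9, MMP10, MMP13, IL6, CCL2 and IVL were too low. Among the 22, 18 fell, 2 rose and 2 did not pass the test, with a median log2 fold change of -0.62 where that of all genes tested was 0.0006. Over all genes tested 25.8% fell and 28.7% rose. At least 2-fold, 7 of the 22 fell and none rose, beside 4.21% and 2.96% of all genes tested. On the TPM as deposited 20 targets were lower and 1 higher, where 6814 of all 16901 genes were lower and 2756 higher.

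PLAU, which encodes the urokinase protease, had the largest fall in that list on the log2(TPM + 1) scale, from 79.36, 74.36 and 74.65 TPM in shCtrl to 9.37, 8.48 and 8.34 TPM in KD. Its log2 fold change was -2.75 (SE 0.0562, adjusted p = 3.42e-07 in limma). CXCL8, which encodes the chemokine interleukin 8, was at 4.81, 3.16 and 4.5 TPM in shCtrl and at 0.35, 0.43 and 0.23 TPM in KD, and fell by 1.80 (SE 0.157, adjusted p = 9.86e-05 in limma). By the ratio of mean TPM, CXCL8 was 12.3 times lower and PLAU 8.72 times lower. Other targets past 2-fold included genes of the matrix and of the cytoskeleton. TIMP1, a metalloproteinase inhibitor, had a log2 fold change of -1.55, fibronectin FN1 of -1.23 and the filament protein VIM of -1.22.

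CCND1, the cyclin that JUN is known to induce and JUNB to repress, was at 287.07, 283.83 and 297.11 TPM in shCtrl and at 264.31, 257.45 and 283.75 TPM in KD. The deposited values were lower in KD, yet the log2 fold change after scaling was 0.14 (adjusted p = 0.0208 in limma), and on the TPM as deposited it was -0.11, so its direction rests on the scaling. Its call was also lost without shCtrl replicate 1 and without shCtrl replicate 2, where the adjusted p rose to 0.11. EZR, a membrane linker, rose by 0.38 and on the TPM as deposited by 0.13. The PLAUR fall of 0.18 (adjusted p = 0.0479 in limma) was lost in 9 of 13 alternative settings.

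**Figure D4:**
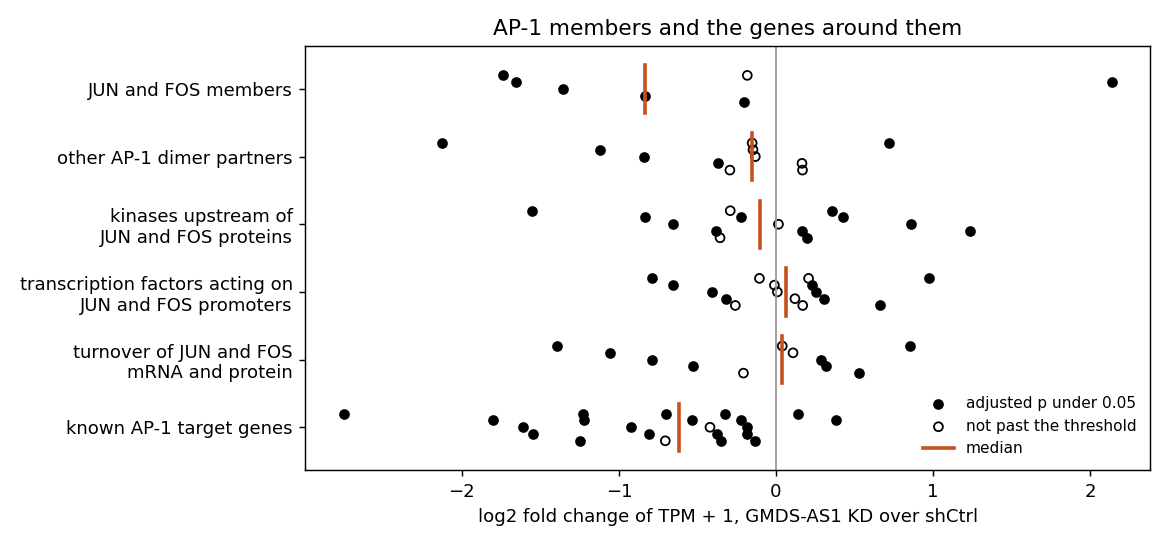
Log2 fold change of TPM + 1, GMDS-AS1 KD over shCtrl, for the 7 AP-1 genes and the tested genes of 5 lists around them, with filled points for an adjusted p under 0.05 in limma, open points for the others and an orange line for the median. The medians of the partners, kinases, promoter factors and turnover genes lie between -0.15 and 0.07, and that of the AP-1 target genes at -0.62.

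The genes whose level followed a member most closely over the 6 libraries were sought among 10317 genes with a mean of at least 5 TPM, by Pearson's r of log2(TPM + 1). These values describe 6 libraries that share the contrast of the groups, and 560 genes had an r above 0.99 with FOSL1 and 1057 with JUND. Among the closest to FOSL1 were the immediate-early factor EGR1, WBP1L, TIMP1 and SLC39A14, a zinc transporter, with r of 0.9997 to 0.9998. EGR1 was at 200.29, 204.75 and 204.54 TPM in shCtrl and at 79.35, 79.06 and 77.56 TPM in KD. Closest to JUND were the histone variant gene H2AX, FAM168B, the mitochondrial dehydrogenase gene HSD17B10, and the small GTPase genes CDC42 and RAC3, with r of 0.9997 to 0.9999. H2AX was at 22.46, 23.91 and 23.2 TPM in shCtrl and at 90.63, 84.34 and 86.6 TPM in KD, a rise of 2.11 on the log2 scale beside the 2.14 of JUND. HSD17B10 rose by 3.18 and CDC42 by 0.63, so a close r does not mean a change of like size.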

How the data were processed

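RNA of HCT116 cells was sequenced by the submitters in 3 shCtrl and 3 GMDS-AS1 KD libraries, poly-A selected and paired-end. The authors deposited TPM per Ensembl gene and library, and their methods name Cufflinks and RSEM as the source of expression estimates. The submitters' processing notes list Trimmomatic 0.27, TopHat2 2.1.1 and GRCh38.p13, and the comparison by the authors used DESeq2. Whether reads were counted by strand, and the annotation version, are not given in the sources used here. Values were read for 60662 genes. The lines of 2 further genes are broken and hold no value.

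Libraries were scaled on TPM by the trimmed mean of M-values over the tested genes, unweighted, after trimming each end of the log ratios by 30% and of the means by 5%. Genes reaching 0.5 TPM in 3 or more libraries were compared on log2(TPM + 1) by limma 3.58.1 (R 4.3.3) with a trended variance, no replicate block and Benjamini-Hochberg adjustment over the 16901 genes tested. TPM does not allow a count model, so none was run. Ratios within a subfamily were computed on log2(TPM + 1) of the deposited values and compared with an exact permutation test. The fit was tested on simulated data of this comparison with 16897 genes. In these, 200 genes with a mean of at least 5 TPM were changed by 1.5 on the log2 scale, up or down. At an adjusted p under 0.05 and a change of at least 2-fold, the fit called 194 of them and 1 unchanged gene. Calls at any fold were not counted there. Far more genes were called in the data than were changed in the simulation, so it does not check the scaling.

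The members and the lists were chosen with earlier results of these data known, so no list count is independent evidence. The text names the 7 members, GMDS-AS1, the genes of each list past 2-fold (at most the 6 largest) together with ELAVL1, SRF, STAT3, MAPK8, ATF3 and CCND1, the genes that overlap a member and the 5 genes most like FOSL1 and like JUND. A few of these genes enter the counts but are not reported here by name. Promoters came from RefSeq for 6 of the 7 members. The 3′ UTRs, GC content and positions came from 1 transcript per gene in GENCODE 29, the principal isoform and then the longest. The alternatives changed the scaling, pseudocount, filter, variance trend or replicate block, or left out a library. Tables and plots were made in Python 3.11.15 (numpy 2.4.6, pandas 2.3.3, scipy 1.17.1, matplotlib 3.10.9).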

Additional observations from a re-analysis of the deposited data

How the results depend on the processing

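The directions of all 7 members and the calls of the 6 called members held in all 13 alternatives, and the counts of members called changed by no more than 1.5 times. FOSB was called only on the TPM as deposited, with a log2 fold change of -0.39 (adjusted p = 0.0161 in limma, 0.0161 to 0.424 over the alternatives). GMDS-AS1 was no longer past the threshold without the filter on low values (-0.39, adjusted p = 0.15), with a group mean of at least 1 TPM (-0.41, adjusted p = 0.0637) and on leaving out any library except shCtrl replicate 3. Over all 6 libraries left out in turn its log2 fold change ranged from -0.51 (without shCtrl replicate 3, still called) to -0.30 (without shCtrl replicate 2), and with a pseudocount of 0.1 it was -0.68. The log2 ratio of JUN to JUNB differed between the groups by -1.502 with a pseudocount of 0.1, and that of JUN to JUND by -3.87.

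The labels do not say whether same-numbered libraries were prepared together. The deviations of same-numbered libraries from their group means correlated at 0.029, -0.0376 and 0.0142, so no shared effect of the number was seen. With the replicate block, GMDS-AS1 had an adjusted p of 0.0523 (log2 fold change -0.41), JUN 0.000125, JUNB 0.00367, JUND 7.05e-05, FOS 0.000282, FOSB 0.159, FOSL1 6.52e-05 and FOSL2 0.000372 in limma, and no call of a member changed.

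The scaling moved all genes together. On the TPM as deposited the median log2 fold change of all genes tested was -0.20, with 6814 genes lower and 2756 higher, and 84.0% of the genes past 2-fold were lower (1177 lower and 225 higher), where trimmed mean scaling gave 58.8%, with 712 lower and 500 higher. With upper-quartile scaling the median was -0.07 and the share 70.1%. A pseudocount of 0.1 gave 1461 genes lower at least 2-fold. On the TPM as deposited 2 kinases, 2 promoter factors and 2 turnover genes were higher, and 7 promoter factors were lower. The count of higher AP-1 targets was 1 on the TPM as deposited, with upper-quartile scaling, without the variance trend and without shCtrl replicate 1 or 2. After trimmed mean scaling the JUN subfamily summed to 348.1 in shCtrl and 447.8 in KD, the FOS subfamily to 383.8 and 127.6, and all 7 members to 731.9 and 575.4. Depth is unknown, so precision at low TPM, where FOSB and GMDS-AS1 lie, could not be given.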
